A study of Mus musculus with 24 samples.

Results

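The Hedgehog signaling genes described here are *Gli1*, *Gli2*, *Gli3*, *Ptch1*, *Smo*, *Sufu*, *Hhip*, *Gpr161* and *Arl13b*. They were picked by gene symbol and not by a cutoff on measured values, with earlier results of these data known. They are 9 of the 54658 genes in the table. All 9 symbols were found, and each is given in all 24 libraries. RNA came from mouse embryos homozygous for a disrupted *Cep135* gene, labelled *Cep135* (-/-), and from *Cep135* (+/+) controls. *Cep135* codes for a protein that centrioles need to form and duplicate. Dorsal telencephalon, the part of the forebrain that becomes the neocortex, was taken at E11.5 and at E14.5 from 3 mutants and 3 controls at each age. Cells of the E14.5 cortices of the same 6 embryos were also dissociated and cultured with EGF and FGF2 as incipient neurospheres, which are floating clusters of neural progenitors, and were collected after 12 and 24 hours.

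In the study the mutant allele is named Δ8, a small CRISPR/Cas9 deletion in the second exon. The allele is in every cell of the embryo, so no driver line limits it. E11.5 embryos are numbered 1 to 3 within each genotype. E14.5 mutants are embryos 1, 2 and 6 and E14.5 controls are embryos 3, 4 and 5. The titles of all E14.5 embryos share 1 name prefix and those of the E11.5 embryos have 2 others, so age cannot be told apart from whatever the prefix marks, which the labels do not say. The descriptions of 2 of the E11.5 mutants carry another prefix, and the titles were followed. The labels of mutant 6's cortex name both ages. It was used as an E14.5 cortex, as its title and source say, and age was also compared without it. Each library is 1 embryo or 1 culture, so the 6 libraries of a stage are separate animals, while the cortex, 12-hour and 24-hour libraries of an embryo share that animal.

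Hedgehog signals are read at the primary cilium, a single antenna that grows from the older centriole of a cell. Without ligand, the receptor PTCH1 keeps the membrane protein SMO out of the cilium, and GLI3 and GLI2 are cut into repressors. With ligand, SMO enters the cilium and full-length GLI proteins switch on target genes, among which *Gli1*, *Ptch1* and *Hhip* are the usual readouts. In the forebrain, Sonic hedgehog patterns the ventral side, whereas the repressor form of GLI3 is needed for the dorsal side, from which the cortex forms. Cells that lose their centrioles cannot build a cilium. All 9 are protein-coding genes. In GENCODE vM21 on GRCm38, with strands in brackets, the genes of the membrane and cilium are *Ptch1* at chr13:63508328-63573598 (minus), *Hhip* at chr8:79965851-80058006 (minus), *Smo* at chr6:29735503-29761365 (plus), *Gpr161* at chr1:165295789-165326745 (plus) and *Arl13b* at chr16:62793685-62847040 (minus). Those of the GLI proteins and their binding partner are *Sufu* at chr19:46396896-46488804 (plus), *Gli1* at chr10:127329882-127341974 (minus), *Gli2* at chr1:118834132-119053619 (minus) and *Gli3* at chr13:15463235-15730026 (plus).

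Values are normalized read counts, that is, reads per gene divided by 1 size factor per library. Reads were taken at the 3′ ends of transcripts, so they measure the amount of RNA of a gene and not the form of its protein. They give no information on whether GLI3 is full length or cut, nor on where SMO is in the cell. No gene length correction applies to such reads, and levels are not compared between genes. Libraries held 4732781 to 11645213 reads on genes, 6.11% to 34.8% of normalized counts fell on *Gm42418*, which has ribosomal RNA sequence, and no libraries were identical. *Cep135* itself had 171 to 375 normalized read counts in the 12 cortices, with mutants and controls overlapping at each age. Reads at its 3′ end do not cover the deleted bases and do not check the genotype. The defining markers of dorsal telencephalon were found in all libraries, with 5 of 5 above 0 in each group and a summed level of 2302 to 4964. Markers of ventral telencephalon and interneurons were also found, with a summed level of 974 to 1647 at E11.5 and 2178 to 2800 at E14.5.

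Promoter sequences are shown for *Ptch1* and *Hhip*, whose proteins hold the pathway back and which are known GLI target genes, and for *Gpr161*, the single member that rose with age. Each window holds 250 bases before a RefSeq start and 50 bases from it on, in build GRCm38.p6, written 5′ to 3′ on the strand of the gene. Lower case marks the bases before the start and capitals mark the bases from the start on. The *Ptch1* window is chr13:63565686-63565985 on the minus strand and lies inside the GENCODE gene, as the start of 1 of its transcripts. The *Hhip* window is chr8:80057959-80058258 on the minus strand. The *Gpr161* window is chr1:165295516-165295815 on the plus strand.
Ptch1: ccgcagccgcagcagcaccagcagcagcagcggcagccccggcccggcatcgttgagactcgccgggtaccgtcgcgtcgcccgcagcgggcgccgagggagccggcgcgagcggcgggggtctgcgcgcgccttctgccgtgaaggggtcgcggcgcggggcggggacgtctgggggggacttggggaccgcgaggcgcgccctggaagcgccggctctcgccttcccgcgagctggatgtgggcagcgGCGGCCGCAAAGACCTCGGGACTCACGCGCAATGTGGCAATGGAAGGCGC
Hhip: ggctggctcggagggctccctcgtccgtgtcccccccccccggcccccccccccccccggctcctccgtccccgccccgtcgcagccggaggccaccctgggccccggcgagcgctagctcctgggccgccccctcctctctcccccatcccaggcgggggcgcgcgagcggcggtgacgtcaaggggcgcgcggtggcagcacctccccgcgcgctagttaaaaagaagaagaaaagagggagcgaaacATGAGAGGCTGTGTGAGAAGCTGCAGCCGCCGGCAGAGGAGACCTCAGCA
Gpr161: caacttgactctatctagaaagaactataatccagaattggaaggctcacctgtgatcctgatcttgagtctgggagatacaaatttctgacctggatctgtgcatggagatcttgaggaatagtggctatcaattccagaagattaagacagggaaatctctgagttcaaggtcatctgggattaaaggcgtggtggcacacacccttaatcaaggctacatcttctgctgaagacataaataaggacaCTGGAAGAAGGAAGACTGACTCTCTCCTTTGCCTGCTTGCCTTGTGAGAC
The *Ptch1* and *Hhip* windows are rich in GC, with 76.3% and 73.7% GC and 47 and 30 CpG dinucleotides, against a median of 52.7% and 7 CpG over all 32851 windows. The *Gpr161* window has 44.0% GC and 1 CpG, and a second RefSeq window of the gene has 45.7% GC and 5 CpG. The windows of *Gli2*, *Gli3*, *Smo*, *Sufu* and *Arl13b* had 56.3% to 71.0% GC and 12 to 39 CpG. The GLI consensus GACCACCCA, searched on both strands, was in 83 windows (0.253%) and in 0 of the 9 windows of these 8 genes. Its last letters, CCACCCA, were in 3056 windows (9.3%) and in 0 of the same 9. These letters were searched in these windows only, and *Gli1* has no window in the table.

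**Figure D1:**
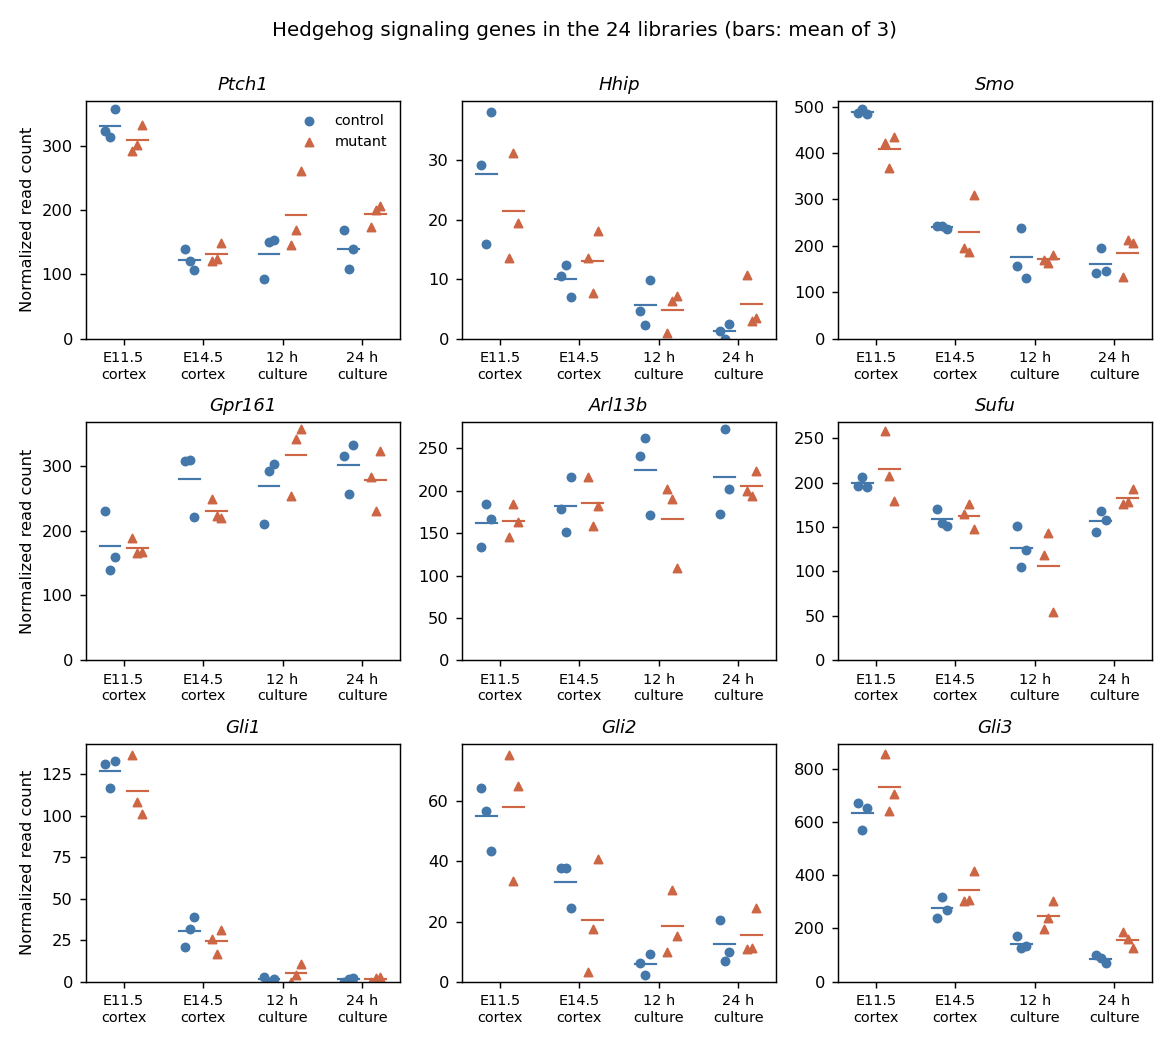
Normalized read count of each Hedgehog signaling gene (vertical axes, linear, from 0) in the 24 libraries by stage; circles are controls, triangles are mutants and bars are means of 3. *Gli1* lay between 101 and 137 at E11.5, between 16.6 and 39.2 at E14.5, and between 0 and 10.7 in culture, whereas *Arl13b* lay between 109 and 273 throughout.

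The first question was how these genes change as the cortex develops, over the 12 cortices with genotype as a term. From E11.5 to E14.5, 7 of the 9 genes fell, *Gpr161* rose and *Arl13b* did not pass the test, which was limma with an adjusted p under 0.05, after adding 1 to each value and taking log2. Over all 13650 genes tested, 29.3% were lower and 23.8% higher at E14.5. The median log2 fold change was -1.001 over the 9 genes and -0.08 over all genes tested. Log2 fold changes below are E14.5 minus E11.5 and are followed by their standard error. The same 8 genes were called with any 1 of the 12 cortices left out, mutant 6's included. In bulk tissue, fewer cells of a type and less RNA per cell cannot be told apart.

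*Gli1*, the activator whose transcription is itself a readout of the pathway, had 131, 117 and 133 normalized read counts in E11.5 controls 1 to 3 and 137, 108 and 101 in E11.5 mutants 1 to 3. At E14.5 it had 21.2, 31.9 and 39.2 in controls 3, 4 and 5 and 26.0, 16.6 and 31.3 in mutants 1, 2 and 6. Every E14.5 cortex was below every E11.5 cortex, in both genotypes. The change of *Gli1* was -2.13 ± 0.18 (adjusted p = 7.81e-08), to 0.228 of the E11.5 level. *Gli3*, the main repressor in the dorsal forebrain, had 672, 569 and 654 in E11.5 controls and 855, 640 and 705 in E11.5 mutants. At E14.5 *Gli3* had 240, 316 and 269 in controls and 304, 308 and 417 in mutants. All E14.5 values of *Gli3* were again below all E11.5 values, and mutant 6 was the highest E14.5 cortex. The change of *Gli3* was -1.15 ± 0.11 (adjusted p = 2.58e-07).

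*Gli2*, the main activator in most tissues, was measured at lower counts, with 64.5, 56.9 and 43.5 in E11.5 controls and 75.5, 33.5 and 64.9 in E11.5 mutants. At E14.5 it had 37.6, 37.7 and 24.4 in controls and 3.39, 17.7 and 40.7 in mutants. The ages overlapped, and E14.5 mutant 1 stood at 3 reads, far under the other embryos. *Gli2* changed by -1.30 ± 0.42 (adjusted p = 0.0166), and without E14.5 mutant 1 by -0.84. Leaving out any of the other 11 cortices gave changes as low as -1.56, and the call was kept in each.

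Of the receptor side, *Ptch1*, the receptor and a target gene, had 322, 314 and 357 in E11.5 controls and 292, 301 and 332 in E11.5 mutants. At E14.5 it had 139, 120 and 106 in controls and 121, 124 and 148 in mutants. The highest E14.5 value, 148 in mutant 6, was far below the lowest E11.5 value, 292 in mutant 1. *Ptch1* changed by -1.34 ± 0.10 (adjusted p = 2.14e-08), to 0.396 of its E11.5 level.

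*Hhip*, a membrane protein that binds and traps the ligands and is another target gene, was low, with 29.2, 15.9 and 38.1 in E11.5 controls and 13.5, 31.2 and 19.5 in E11.5 mutants. At E14.5 it had 10.6, 12.3 and 6.97 in controls and 13.5, 7.73 and 18.0 in mutants. The ages overlapped. *Hhip* changed by -1.001 ± 0.31 (adjusted p = 0.0121). *Smo*, the signal transducer that PTCH1 holds in check, had 487, 495 and 483 in E11.5 controls, 422, 368 and 435 in E11.5 mutants, 242, 242 and 236 in E14.5 controls, and 196, 187 and 309 in E14.5 mutants. Every E14.5 cortex was below every E11.5 cortex. *Smo* changed by -0.94 ± 0.11 (adjusted p = 4.07e-06).

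*Sufu*, which binds GLI proteins and keeps them inactive, moved least among the genes that fell. It had 180 to 258 normalized read counts at E11.5 and 148 to 176 at E14.5, so that the ages did not overlap. *Sufu* changed by -0.36 ± 0.10 (adjusted p = 7.64e-03). *Gpr161*, a ciliary receptor that keeps protein kinase A active and thereby favors GLI repressors, moved the other way. It had 230, 140 and 159 in E11.5 controls, 189, 165 and 167 in E11.5 mutants, 307, 309 and 221 in E14.5 controls, and 248, 223 and 220 in E14.5 mutants. Its ages overlapped through E11.5 control 1 alone. *Gpr161* changed by 0.54 ± 0.13 (adjusted p = 2.35e-03). *Arl13b*, a small GTPase of the ciliary membrane, had 134 to 184 at E11.5 and 151 to 217 at E14.5, a difference of 0.17 with a 95% interval of -0.09 to 0.43 (adjusted p = 0.253).

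**Figure D2:**
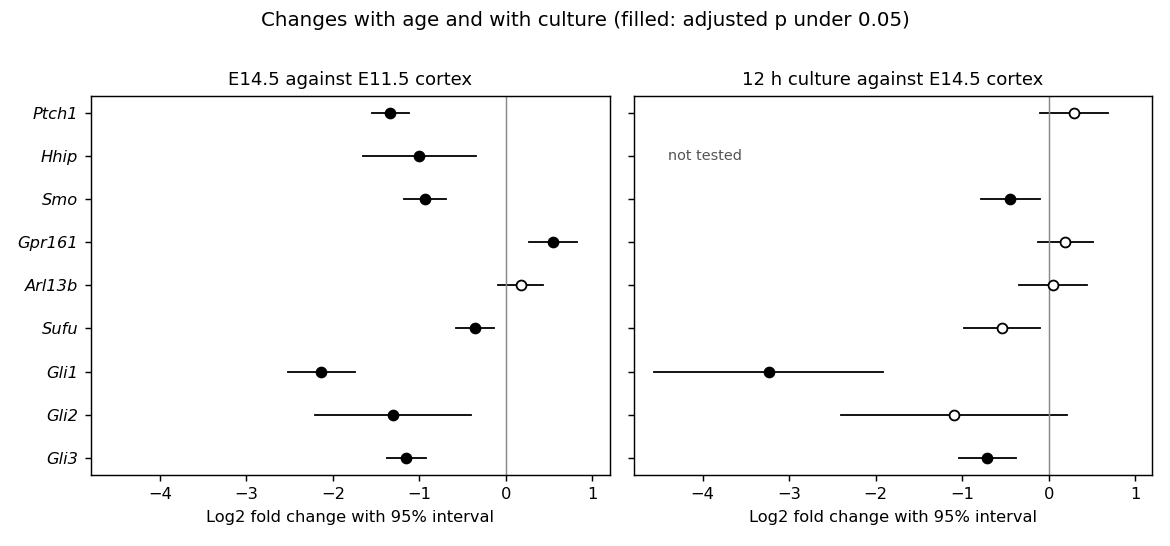
Log2 fold change (horizontal axes) of each Hedgehog signaling gene with age and with 12 hours of culture; points are limma estimates, lines are 95% intervals, and filled points have an adjusted p under 0.05. With age all genes but *Gpr161* (0.54) and *Arl13b* (0.17) lie left of 0, whereas in culture *Gli1* (-3.24) lies far left and *Ptch1* (0.30) right of 0.

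Among the other genes of the pathway, 40 of 46 could be tested between the ages, of which 8 were higher and 16 lower at E14.5. Their median change was -0.17. The ligand *Shh* had 23.4 to 44.5 normalized read counts at E11.5 and 4.36 to 8.23 at E14.5, and fell by 2.20 on the log2 scale (adjusted p = 3.75e-06), so ages did not overlap. *Ihh* and *Dhh* were too low to be tested between the ages. All 5 genes for ligand acylation and release were lower at E14.5, with *Scube3*, a secreted protein that helps to release the lipid-modified ligand, at -1.31 ± 0.13. Of the co-receptors that bind ligand together with PTCH1, *Gas1* fell by 1.05 (1124 ± 96.1 to 544 ± 62.6, SD, n = 6 each), *Cdon* rose by 0.56 (352 ± 57.1 to 519 ± 76.5), and *Boc* changed by -0.23 without passing the test (adjusted p = 0.125).

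Of the 23 regulators of SMO, GLI proteins and the cilium, 5 were higher, 4 lower and 14 not called, with a median of 0.09. The largest rises there were those of *Prkacb*, a catalytic subunit of protein kinase A, which primes GLI proteins for cutting, with 0.98 ± 0.08, and of *Ankmy2*, which helps bring adenylyl cyclases to the cilium, with 0.84 ± 0.11. Of the genes known as GLI targets in some tissues, 7 of 10 could be tested, of which 2 were higher and 4 lower. *Ccnd1*, the cyclin of G1, had 4699 to 7377 normalized read counts at E11.5 and 588 to 924 at E14.5, and fell by 2.91 ± 0.11 (adjusted p = 1.79e-11). *Bcl2*, which protects cells from apoptosis, rose by 0.63 ± 0.09.

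Markers of cell types also differed between the ages. Of the apical progenitor markers, 6 of 8 were lower and 2 higher, with a summed level of 14404 to 18118 at E11.5 and 9237 to 11048 at E14.5. All 8 markers of postmitotic neurons were higher, with sums of 8666 to 13035 and 27953 to 38443. Of the meningeal markers, 5 of 6 were lower and 1 higher, with sums of 1963 to 7868 and 1529 to 2571. Of the ventral and interneuron markers, 5 of 7 tested were higher and 1 lower. Their part in the changes of the Hedgehog genes was not tested.

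The second question was what the cells keep of this program once they leave the tissue, from the E14.5 cortex to 12 hours in culture, with genotype as a term. *Gli1* fell to between 0 and 12 reads, *Gli3* fell less, *Smo* fell by a change near the threshold that many alternatives did not call, and *Ptch1* did not pass the test. Of the 8 genes that could be tested, 3 were lower and 0 higher with limma, 4 of 8 having an unadjusted p under 0.05. Over all 13601 genes tested, 16.1% were lower and 14.1% higher. The median change was -0.49 over the 8 genes and -0.06 over all. edgeR called 2 of them (*Gli1*, *Gli3*) and DESeq2 called 3 (*Gli1*, *Gli3*, *Smo*). *Hhip* passed no filter on low values here and is given as levels.

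*Gli1* had 2, 0 and 2 reads in the 12-hour cultures of controls 3, 4 and 5 and 0, 4 and 12 reads in those of mutants 1, 2 and 6. These are 3.15, 0 and 1.52 normalized read counts in controls and 0, 4.21 and 10.7 in mutants, against 16.6 to 39.2 in the cortices. Each culture was below every cortex, and in all 6 embryos the culture was below the embryo's own cortex. The change of *Gli1* was -3.24 ± 0.63 (adjusted p = 1.15e-03). Its size depends on the number added before the log, and was -4.53 with 0.1 and -2.07 with 5 added, with the call kept in both. A count of 0 allows up to 3.52 normalized read counts in control 4 and 2.92 in mutant 1, taken as 3 reads and covering counting error only.

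*Gli3* had 171, 126 and 133 normalized read counts in the 12-hour cultures of controls and 199, 240 and 302 in those of mutants. It was lower in culture than in the embryo's own cortex in 6 of 6 embryos, although the culture of mutant 6 was within the range of the cortices. *Gli3* changed by -0.71 ± 0.15 (adjusted p = 2.72e-03). *Smo* had 157, 238 and 131 in control cultures and 171, 162 and 180 in mutant cultures, and was also lower than in the own cortex in 6 of 6 embryos. In control 4 the values, 242 and 238, were nearly equal. *Smo* changed by -0.44 ± 0.16, with an adjusted p of 0.0476, and this call was not stable. It was lost with edgeR (adjusted p = 0.0578), with no filter on low values (0.0764), with quantile normalization (0.0566) and in 8 of the 12 fits without 1 library, while the change stayed between -0.55 and -0.35 in the latter and was -0.68 with the *Gm42418* share as a term.

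*Ptch1* had 92.8, 150 and 153 in control cultures and 145, 169 and 260 in mutant cultures, against 106 to 148 in the cortices. It was higher in culture than in the own cortex in 5 of 6 embryos, control 3 being the exception. The change of 0.30, with a 95% interval of -0.09 to 0.69, did not pass the test (adjusted p = 0.238). Both are usual target genes, and the interval of *Gli1*, -4.56 to -1.91, lay wholly below that of *Ptch1*. *Hhip*, the third target gene, had 0.975 to 9.87 in culture and 6.97 to 18.0 in the cortices, and was lower in culture in 5 of 6 embryos.

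*Gli2* had 2.35 to 30.5 normalized read counts in 12-hour cultures against 3.39 to 40.7 in the cortices, a change of -1.10 ± 0.62 (adjusted p = 0.191). Without the cortex of mutant 1 it was -1.64 (adjusted p = 0.0257), and was then called. *Sufu* had 54.6 to 151 in cultures against 148 to 176 in cortices, with the culture of mutant 6 lowest, and was lower in 6 of 6 embryos. Its change of -0.53 ± 0.21 had an adjusted p of 0.0614, or 0.0464 with the embryo as a replicate block. Over all settings that left no library out, the change ran from -0.54 to -0.30 and the adjusted p from 0.0252 to 0.528. Fits without 1 library gave adjusted p of 0.0347 to 0.129. *Gpr161* (0.19, interval -0.13 to 0.51) and *Arl13b* (0.05, interval -0.34 to 0.44) had no called difference, and *Gpr161* had 211 to 357 in cultures.

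**Figure D3:**
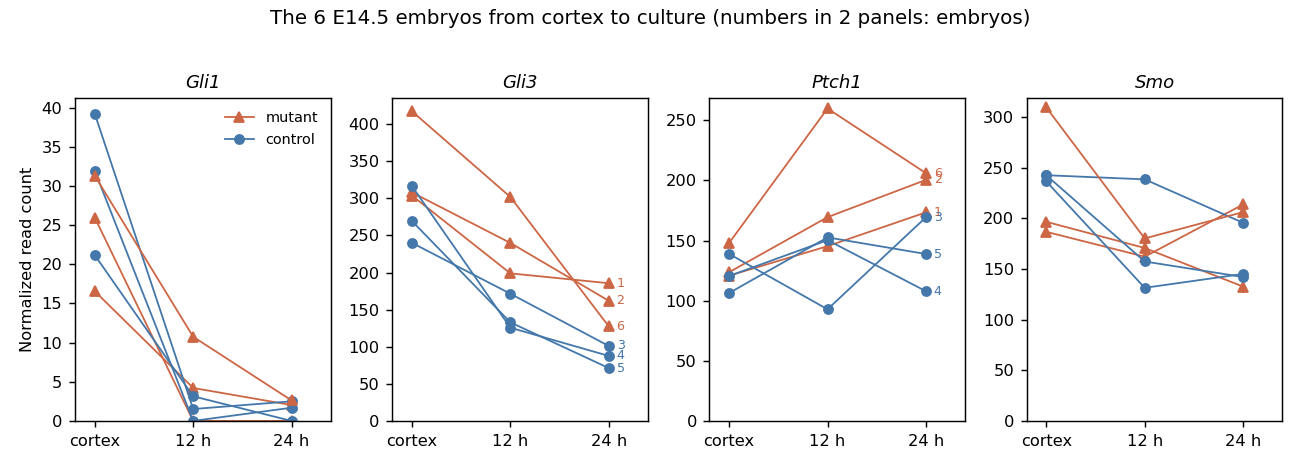
Normalized read count (vertical axes, linear, from 0) of *Gli1*, *Gli3*, *Ptch1* and *Smo* in each of the 6 E14.5 embryos, from cortex to 12 and 24 hours of culture; lines join libraries of an embryo, circles are controls and triangles are mutants. *Gli3* is lower at each step in 6 of 6 embryos, while *Ptch1* is higher at 12 hours than in the cortex in 5 of 6.

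Of the 46 other pathway genes, 37 could be tested between cortex and culture, of which 5 were higher and 8 lower, with a median of -0.10. *Olig2*, a transcription factor of ventral progenitors and of oligodendrocyte precursors, had 65.4 to 134 normalized read counts in the cortices and 153 to 444 in the cultures, and rose by 1.58 ± 0.24 (adjusted p = 1.76e-04). *Gas1* rose by 0.75 ± 0.14 and *Ccnd1* by 0.69 ± 0.13, both opposite to their change with age. *Ccnd2*, the other G1 cyclin of cortical progenitors, fell by 0.80 (± 0.11), and *Evc*, which passes the signal on from SMO at the base of the cilium, by 1.16 (± 0.31). *Cdon* changed by -0.02 and *Boc* by -0.40 (adjusted p = 0.0738). *Shh* had 0 to 3.04 in culture and was not tested.

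The medium and the loss of tissue context came together with a different mix of cells. All 6 meningeal markers, all 5 endothelial markers and the 5 of 6 microglial markers that could be tested fell in culture. Their sums went from 1529 to 2571 down to 118 to 256 for meninges, from 793 to 933 down to 24.3 to 102 for endothelium, and from 384 to 898 down to 6.31 to 40.9 for microglia. Of the 8 apical progenitor markers, 5 fell and 1 rose, with a median of -0.93, although their sum, 8157 to 11437, overlapped that of the cortices. Of the 5 intermediate progenitor markers 2 fell, and their sum went from 2850 to 3240 down to 1719 to 2237. Of the 9 erythroid markers 8 rose, with sums of 38256 to 45371 in the cortices and 69448 to 153171 in the cultures. The sum for postmitotic neurons was 26193 to 40766 in the cultures and overlapped the cortices. The share of *Gm42418* was 10.7% to 34.8% in 12-hour cultures and 9.78% to 15.0% in the cortices. With that share as a term the *Gli1* change was -3.25 (adjusted p = 0.0255), and the calls of *Gas1* and *Evc* were lost. The part of these shifts in the falls of *Gli1*, *Gli3* and *Smo* was not tested.

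Between 12 and 24 hours of culture, 0 of the 7 genes that could be tested were called by limma, 2 having an unadjusted p under 0.05, against 0.292% of all genes tested. *Gli3* had 101, 87.6 and 71.3 normalized read counts in 24-hour control cultures and 186, 162 and 127 in mutant cultures. All 6 embryos had less *Gli3* at 24 than at 12 hours. Its change was -0.68 ± 0.16 (adjusted p = 0.0986). edgeR called 0 of the 7, whereas DESeq2 called *Gli3* (adjusted p = 0.0142). *Sufu* was higher at 24 hours in 5 of 6 embryos, with a change of 0.61 ± 0.21 (adjusted p = 0.318). *Gli1* had 0 to 3 reads in each 24-hour culture, at or under the level that a count of 0 allows, so no fold change is given. *Hhip* had 0 to 10.7 normalized read counts. The remaining genes, *Gli2*, *Ptch1*, *Smo*, *Gpr161* and *Arl13b*, changed by -0.01 to 0.38 with adjusted p of 0.860 to 0.996. Of 38 other pathway genes tested, only *Ccnd1* was called, with 1004 to 1785 at 12 hours, 1613 to 2719 at 24 hours and a change of 0.70 ± 0.11 (adjusted p = 5.96e-03).

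The third question was whether loss of *Cep135* changed these genes. None of the members was called between mutants and controls in any of the 4 stages or over the 12 cortices. In E11.5 cortex, limma called 0 of the 9 genes (1, *Smo*, with an unadjusted p under 0.05) against 0.0149% of all genes tested. In E14.5 cortex it called 0 of 9 (0 unadjusted) against 0.0736%, in 12-hour cultures 0 of 7 (*Gli3* unadjusted) against 0% and in 24-hour cultures 0 of 7 (*Gli3* and *Ptch1* unadjusted) against 0.271%. Over the 12 cortices with age as a term it called 0 of 9 (*Gli3* unadjusted) against 0.139%. edgeR and DESeq2 also called 0 members at E14.5, 12 hours and 24 hours. Few genes of any kind passed, so 0 calls among 9 genes is near the background. In simulated E14.5 libraries limma recovered 99 of 200 genes changed by a fold of 2 and 180 of 200 changed by a fold of 4, so smaller changes could be missed.

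The intervals show what sizes remained possible. In E11.5 cortex the mutant minus control difference lay within -0.51 to 0.22 for *Gli1*, -0.37 to 0.16 for *Ptch1* and -0.09 to 0.50 for *Gli3*. In E14.5 cortex it lay within -1.07 to 0.44 for *Gli1*, -0.28 to 0.49 for *Ptch1* and -0.06 to 0.68 for *Gli3*. *Gli1* was 0.15 lower in mutants at E11.5 and 0.31 lower at E14.5, both within the spread of the embryos. By *Xist* and Y-linked transcripts the 3 E14.5 controls were all male, mutants 1 and 2 female and mutant 6 male. With sex as a term, differences at E14.5 and in its cultures therefore set mutant 6 alone against the controls. The E14.5 difference of *Gli1* then turned to 0.07, higher in mutant 6. The cortex of mutant 6 had summed markers of cortical hem and choroid plexus of 893, against 3231 to 7689 in the other E14.5 cortices. Its liver marker sum was 740, against 4041 to 7398, and the lists share *Ttr*. *Smo* had 487, 495 and 483 in E11.5 controls and 422, 368 and 435 in E11.5 mutants. Every E11.5 mutant was below every E11.5 control, with a difference of -0.26 ± 0.11 (limma, adjusted p = 0.667). Every mutant was below every control for 6.11% of all genes tested at E11.5. The summed markers of ventral telencephalon, at 1402 to 1647 in controls and 974 to 1164 in mutants, and of dorsal telencephalon, at 4416 to 4964 and 3392 to 4408, separated the same libraries in the same direction, with 0 of 7 and 0 of 5 called. Sums for endothelium, at 945 to 1041 in controls and 1086 to 1218 in mutants, separated them in the other direction. So did those for cortical hem and choroid plexus (1259 to 1635 and 1684 to 1944) and liver (112 to 175 and 190 to 973). Limma called no marker of any of these lists. The part of any of these in the lower *Smo* was not tested. At E14.5 the groups overlapped for *Smo*, with a difference of -0.10. In the E14.5 cortices the summed postmitotic neuron markers were 35606 to 38443 in controls and 27953 to 28736 in mutants, with 1 of 8 called lower. Summed microglial markers were 384 to 448 and 735 to 898, with 1 of 5 tested called higher. Their part in the E14.5 differences of the Hedgehog genes was not tested.

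*Gli3* had a higher mean in mutants in each stage. The difference was 0.21 ± 0.13 at E11.5, 0.31 ± 0.17 at E14.5 and 0.26 ± 0.11 over the 12 cortices, with overlapping groups at each age (adjusted p = 0.501 for the 12 cortices). It was 0.07 at E11.5 with the *Gm42418* share as a term and was not called. At E14.5 with sex as a term, the difference was 0.61 for mutant 6 alone against the controls. In 12-hour cultures every mutant (199, 240 and 302) was above every control (171, 126 and 133), with a difference of 0.77 ± 0.26 (limma, adjusted p = 0.913). With sex as a term it was 1.08, for mutant 6 alone. In 24-hour cultures every mutant (186, 162 and 127) was again above every control (101, 87.6 and 71.3), with a difference of 0.86 ± 0.23 (limma, adjusted p = 0.146). In settings that left no library out, the adjusted p ran from 0.0654 to 0.976 at 12 hours and from 0.0501 to 0.940 at 24 hours. Both lowest values came from a limma fit of all 24 libraries, which takes the libraries of an embryo as separate. DESeq2 gave 0.0614 at 24 hours. None of these adjusted values passed the threshold. The cortex, 12-hour and 24-hour values come from the same 6 embryos and do not count as separate evidence.

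*Ptch1* had no called difference in the cortices, where that at E14.5 was 0.10 ± 0.18, or 0.29 for mutant 6 alone with sex as a term. In 12-hour cultures the groups overlapped, with a difference of 0.53 ± 0.31 (limma, adjusted p = 0.913). With sex as a term it was 1.01, again for mutant 6 alone. In 24-hour cultures every mutant (173, 200 and 206) was above every control (169, 108 and 139), with a difference of 0.50 ± 0.21 (limma, adjusted p = 0.407). *Gli2* at 12 hours (2.35 to 9.11 in controls, 9.75 to 30.5 in mutants) and *Sufu* at 24 hours (145 to 169, 176 to 193) also had every mutant above every control. *Gli2* had 4, 2 and 12 reads in these controls and 10, 29 and 17 in these mutants. *Hhip* at 24 hours had 0 to 2.50 in controls and 3.04 to 10.7 in mutants. These were 1, 0 and 2 reads against 15, 3 and 4. In these controls 3 reads are worth 3.75 to 5.06, more than mutants 2 (3.04) and 6 (3.49), so counting error covers this separation. *Hhip* was not tested there, and the 24-hour share below does not cover it. Every mutant was above every control for 5.09% of all genes tested at 12 hours and 7.15% at 24 hours.

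**Figure D4:**
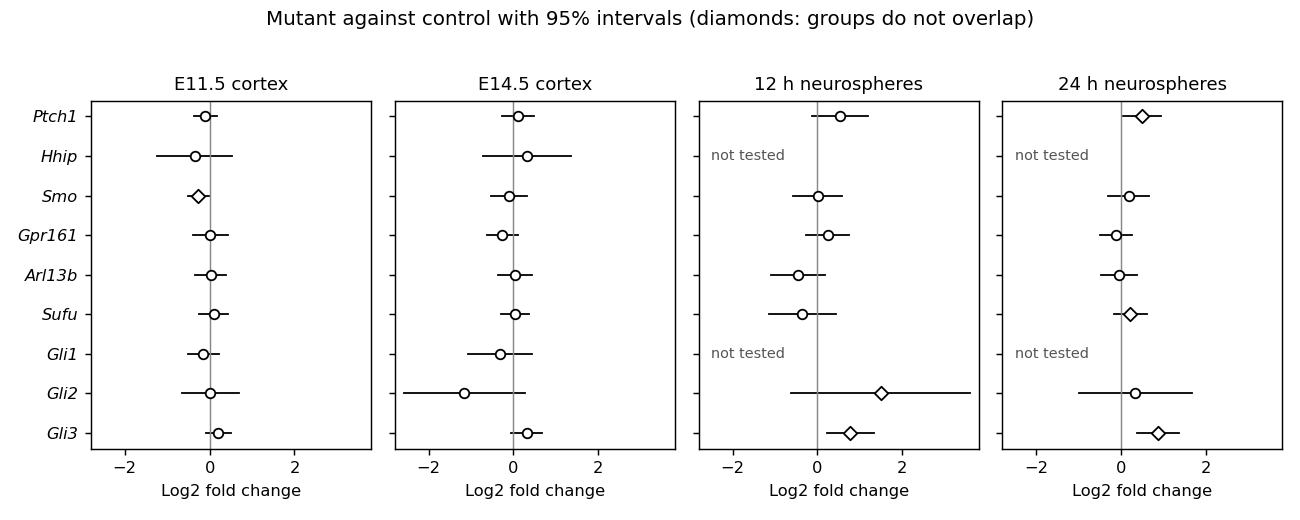
Log2 fold change of mutant against control (horizontal axes) for each Hedgehog signaling gene in the 4 stages, with 95% intervals from limma. Diamonds mark tested genes whose mutant and control values do not overlap, and no adjusted p is under 0.05. *Gli1* and *Hhip* were not tested at 12 and 24 hours and have no point there. *Gli3* lies right of 0 in all 4 panels, at 0.21, 0.31, 0.77 and 0.86.

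Other values differed between the same cultures. In 24-hour cultures, controls held 4732781 to 5709443 reads and 6.26% to 13.9% of *Gm42418*, and mutants held 7903426 to 11645213 reads and 20.5% to 23.0%. Genotype cannot be told apart from either there. The summed apical progenitor markers were 9390 to 10797 in controls and 12103 to 13363 in mutants at 24 hours, with 0 of 8 called. The summed markers of cortical hem and choroid plexus were 804 to 3598 in controls and 4977 to 16596 in mutants at 24 hours, with 1 of 4 tested called (*Ttr*), and 3 of the 7 were at 0 in all 3 mutant cultures. Of the liver markers, 3 of 6 tested were called higher in mutants at 24 hours (*Ttr*, *Alb* and *Serpina1e*), with sums of 775 to 3536 in controls and 5185 to 16616 in mutants. *Ttr* is in both lists and made up most of both sums, with 764 to 3509 in controls and 4826 to 16344 in mutants. Sums for meninges, at 147 to 184 and 232 to 290, and for intermediate progenitors, at 1416 to 1596 and 1633 to 1903, also did not overlap, with 0 markers of either called. Those for postmitotic neurons overlapped, at 32128 to 37453 and 26000 to 32732, with 1 of 8 called lower in mutants. At 12 hours the hem and choroid plexus sums were 1030 to 3718 and 4576 to 15895, with 0 of 4 tested called. Sums for liver, at 1943 to 4935 and 5398 to 15890, also did not overlap. Those for intermediate progenitors (1719 to 1839 and 2005 to 2237) and endothelium (24.3 to 50.3 and 70.5 to 102) were higher in mutants too. Microglial sums were lower, at 18.8 to 40.9 in controls and 6.31 to 15.6 in mutants. No marker of these lists was called at 12 hours, and 0 of the 6 microglial markers could be tested. With the *Gm42418* share as a term, the 24-hour difference was 0.49 for *Gli3* and 0.89 for *Ptch1*. With sex as a term, which sets mutant 6 alone against the controls, it was 0.57 and 0.59. The part of any of these in the higher *Gli3* was not tested.

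Among the other pathway genes, limma called 0 of 41 tested at E11.5 (2 with an unadjusted p under 0.05), 0 of 37 at E14.5 (4 unadjusted), 0 of 38 at 12 hours (0 unadjusted) and 0 of 38 at 24 hours (3 unadjusted). Their median differences were -0.03, 0.03, -0.01 and -0.01, close to those of all genes tested (0.02, 0.01, -0.02 and -0.01). *Dhh* was the only ligand tested between genotypes in the cultures. At 24 hours it had 12.5 to 23.2 normalized read counts in controls and 27.3 to 53.3 in mutants, a difference of 1.13 that was not called. Such a separation was found in 7.15% of all genes tested there. Interaction terms asked whether the effect of genotype differed between ages, between cortex and 12-hour culture, and between culture times. Each called 0 members and 0% of all genes tested, with 0 of 9, 1 of 8 and 0 of 7 members and 1070, 724 and 318 genes at an unadjusted p under 0.05. edgeR and DESeq2 also called 0 members in both culture terms. The member with the unadjusted p under 0.05 was *Gli2* between cortex and culture, with a term of 2.65 ± 1.08. Without the cortex of E14.5 mutant 1 it was 1.76, the lowest of the 12 fits that leave out 1 library, and its highest was 3.39.

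Across the 24 libraries, *Gli1* and *Gli3* followed each other most closely among the members, with a Pearson correlation of 0.89 on the log2 scale, followed by *Gli1* and *Smo* with 0.85. *Gli1* and *Ptch1*, the usual pair of readouts, had 0.54. *Gpr161* ran against *Gli1* (-0.67) and *Smo* (-0.76). These correlations describe 24 libraries of 12 embryos that differ above all by stage, and carry no test. Of 13677 genes ranked, those most like *Gli1* were *Lpar4* (0.96), *Rfwd3* (0.96), *Clec1b* (0.96), *Sri* (0.95) and *Igfbp5* (0.95). *Igfbp5* had 765 to 1015 normalized read counts at E11.5, 282 to 371 at E14.5 and 64.5 to 113 at 12 hours. Those most like *Ptch1* were *Hnrnpu* (0.91), *Snrnp200* (0.91), *Peg12* (0.90), *Mest* (0.90) and *Fndc3c1* (0.89). *Mest*, an imprinted gene, had 1877 to 2752 at E11.5, 372 to 586 at E14.5 and 485 to 709 at 12 hours.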

How the data were processed

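RNA was measured in 24 libraries of *Cep135* (-/-) and *Cep135* (+/+) mouse embryos. The authors prepared oligo(dT)-primed 3′ libraries (QuantSeq FWD), aligned reads to GRCm38 with TopHat 2.0.10 (using SAMtools 0.1.19 and Bowtie 1.0.0) and counted them per gene by strand with HTSeq 0.6.1 on GENCODE vM20 genes. The deposited table holds signal values: counts of reads over a size factor that is set for each library, with replicates kept apart. The study used DESeq2 for its own comparisons; a count test was not the main test here because the deposited values are normalized. Whole reads were used for 23 of the 24 libraries, in which 100% of 464180 values above 0 were whole within 1e-4 reads. edgeR 4.0.16 and DESeq2 1.42.0 were run on these as alternatives. In E11.5 control 1 a read is worth 1.01. All of its 20486 values above 0 were also whole at that step. Its reads were not used, by a set rule for libraries where a read is worth nearly 1.

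The main test was limma-trend (limma 3.58.1, R 4.3.3), two-sided, on log2(value + 1). Genes averaging 10 or more over the compared libraries were tested, p-values were adjusted by Benjamini-Hochberg over all of them, and the threshold was 0.05. Limma's intervals are 95% intervals. Groups were taken from the labels, and E11.5 replicates were numbered in accession order. The embryo pairs cortex and culture libraries, by the labels; deviations of libraries of an embryo from their group means correlated by -0.11 to 0.18. Alternatives were other pseudocounts (0.1 and 5), filters and scalings, terms for sex, title prefix (at E11.5) or *Gm42418* share, the embryo as a block, and each library left out. For genotype within a stage, a fit of all 24 libraries was another. Steps were tested on simulated counts. The genes named are the 9 members, *Cep135*, *Shh*, *Cdon*, *Boc* and *Gas1*, and of the other pathway genes up to 3 higher and 3 lower with the smallest p in the age, culture and time comparisons, except that some genes are not reported here. *Gli1* and *Ptch1* were each also set beside the 5 genes with the highest Pearson correlation. *Ihh*, *Dhh* and *Gm42418* were named after their values were seen. The members and lists were chosen with earlier results of these data known. No deposited column was left out.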

Additional observations from a re-analysis of the deposited data

How the results depend on the processing

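Of 221 recomputed counts of called members, 220 stayed within 1.5 times of the reported count, and 1 moved: from 12 to 24 hours DESeq2 called 1 member, *Gli3* (-0.69), where limma called 0. Of 1015 recomputed values of single genes, 982 kept their direction and side of the threshold, 14 lost the call, 9 gained it and 10 changed sign. The changes of sign included *Gli1* between E14.5 genotypes, at -0.31 in the main fit and 0.0668 with sex as a term, for mutant 6 alone. The others were in values near 0. Between cortex and culture, fits without 1 library gave -0.0320 to 0.202 for *Arl13b*, below 0 without E14.5 control 4, 12-hour control 3 or 12-hour control 4, and -0.0980 to 0.0434 for *Cdon*, above 0 in 6 of them. *Smo* in culture lost its call under no filter, quantile normalization, edgeR and 8 of the 12 fits without a library, with changes of -0.55 to -0.35. With the embryo as a replicate block, 4 members were called in culture against 3 without it, *Sufu* being added, and the block changed no other call. DESeq2 called 64, 9, 182 and 160 genes in all between genotypes at E14.5, 12 hours and 24 hours and between culture times, against 10, 0, 36 and 39 by limma. edgeR and DESeq2 were not run for comparisons that hold E11.5 control 1. Members under about 15 normalized read counts (*Gli1*, *Gli2* and *Hhip* in culture) are limited by depth, and the cause of the other changes was not tested.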
